A study of Mus musculus with 5 samples.

Results

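The A and B compartments of the 19 autosomes were compared between Late and Basal neuronal nuclei of the mouse hippocampus. Of 51811 bins of 50 kb listed in any library of the series, 47334 lay on autosomes and had a value in all 5 libraries, which makes 2366.7 Mb. The measured value was PC1, the first principal component of a chromosome's Hi-C contact matrix, deposited as a signed score per bin. Hi-C ligates DNA fragments that touch inside the nucleus and counts such contacts by sequencing. In HOMER's convention a bin above 0 lies in compartment A and a bin below 0 in compartment B. Chromosome 7 of Late replicate 1 was multiplied by -1, because as deposited it correlated with the other Late library at r = -0.976. The rule that chose the bins used no difference between the groups.

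The comparison used 2 Basal and 2 Late libraries, and the single Early library is quoted beside some results but was not tested. All 5 came from sorted nuclei of mice that carry a tamoxifen-inducible Cre driven by Arc and a floxed eYFP reporter, with genotype +/+. Arc is an immediate early gene, so this Cre can mark only neurons that were active around a dose of 4-hydroxytamoxifen, which was given before contextual fear conditioning. Nuclei were stained for NeuN and GFP, and the protocol gives, for each group, 100000 sorted cells pooled from 2 animals and 2 biological replicates made with a Dovetail kit. The protocol also gives 48 h of dark housing and 1% paraformaldehyde, the same for all 5 libraries. The treatment label is identical in all 5 libraries (foot shock and collection on day 0, without recall), while the protocol describes collection 1.5 to 2 h or 5 days after conditioning. Basal and Late are therefore known only by their titles, and which gate (GFP-positive or GFP-negative) each came from was not given in the sources used here. At issue is how chromosome folding differs between these states of neurons in memory formation.

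Compartment A is the open, gene-rich and mostly transcribed part of the genome, and compartment B the compact, gene-poor part that often lies at the nuclear lamina. Chromatin of each kind contacts its own kind more often than the other. Most compartments are shared between cell types, while some follow the genes that a cell type uses: megabase-long neuronal genes, for instance, can lie in A in neurons and in B elsewhere. PC1 gives a bin's place in this division, and is not a level of transcription. On each chromosome it is scaled to a mean near 0 and a fixed spread, so a bin's value tells its place within its chromosome rather than an absolute amount.

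No annotation of mm9, the build of the files, was used. Genes are therefore named only where their place in the mouse genome is well known, as background and after the values were seen. The RefSeq table of GRCm38.p6 served to check the chromosome and the neighbouring genes. Marker genes of neurons and of glia were not placed on bins, so the cell type in the labels was not checked here.

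Most of the autosomal genome kept its compartment, and bins near the borders differed most often. In 86.5% of bins all 4 libraries had the same sign, with 19268 bins in A and 21691 in B. Mean PC1 of the stable A bins was 1.04 in both Basal libraries and 1.04 and 1.02 in Late replicates 1 and 2. In the stable B bins it was -0.91 in both Basal libraries and -0.93 and -0.92 in Late. These bins were chosen for a stable sign and include bins that went either way. Farther inside A the values were lower in Late: A bins of the Basal mean more than 2000 kb from a border had a median difference of -0.13, and those within 100 kb of one 0.045. The median absolute difference between group means over all bins was 0.195 PC1 units, beside 0.0956 for one Basal library against the other and 0.159 for one Late library against the other. Across bins, Pearson's r was 0.988 for the Basal pair and 0.968 for the Late pair. The 4 pairs made of a Basal and a Late library gave r from 0.929 to 0.943, below both.

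Within this stable frame, 6735 bins differed between Late and Basal at an adjusted p of 0.05 in limma (14.2% of the 47334 tested). Of these, 3673 were higher in Late, toward A (7.76%), and 3062 were lower, toward B (6.47%). The higher bins had a median difference of 0.59 (median SE 0.12) and the lower bins of -0.59 (median SE 0.12). Both Late libraries lay outside the range of both Basal libraries in 61.7% of bins, so absence of overlap was common and is not read as a result. The number called moved when a library was left out: 1681 without Basal replicate 1, 1818 with the other Basal library removed and 14036 with Late replicate 1 removed. With chromosome 7 left out, 5979 bins were called, of which 5973 were among the 6735. The majority of higher over lower bins depended on the scaling, since 54.5% of called bins were higher on the deposited scale, after the sign change on chromosome 7, and 35.7% with chromosome medians aligned. The labels do not tie animals to the replicates, so the p-values measure only the spread between these libraries, which may be technical.

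Called bins were of 3 kinds, and none of these made up a majority. Among the higher bins, 1450 (39.5%) passed from B to A by their group means, 1191 (32.4%) lay in A in both groups and 1032 (28.1%) lay in B in both. Among the lower bins, 992 (32.4%) passed from A to B, 1025 (33.5%) lay in A in both and 1045 (34.1%) lay in B in both. Most called bins of both directions thus moved within a compartment. Changes of compartment were still more frequent in them than over all bins. Called bins were selected for a large difference, so this order follows at least in part from the selection. A change of sign shared by both libraries of each group occurred in 27.9% of called bins and in 5.34% of all bins.

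Bins moved in blocks. The called bins formed 1097 regions higher in Late and 923 lower, where called bins of equal sign were joined over gaps of at most 1 bin. The median length was 100 kb in both directions, 424 higher and 406 lower regions held a single bin, and 15 higher and 23 lower regions reached 1 Mb. The longest spanned 2850 kb among the higher and 3250 kb among the lower. Over pairs of bins, Late minus Basal correlated with itself at r = 0.74 at 0.1 Mb, 0.49 at 0.5 Mb, 0.29 at 1 Mb, 0.12 at 2 Mb and 0.0089 at 5 Mb. The difference between the Basal replicates gave 0.019 at 0.1 Mb and that between the Late replicates 0.19, falling to 0.069 at 2 Mb. These correlations run over bins of the same libraries, and bins less than 0.1 Mb apart share reads. Averaging over blocks of 1 Mb kept 60.7% of the variance of Late minus Basal, against 11.4% for the Basal replicates and 23.7% for the Late replicates. The group difference thus extended over stretches of up to about 2 Mb, while the difference between the Basal replicates had no such extent. The difference between the Late replicates was weaker at short range but reached farther. It gave 0.036 at 5 Mb and 0.025 at 10 Mb, where Late minus Basal gave 0.0089 and -0.0036.

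**Figure D1:**
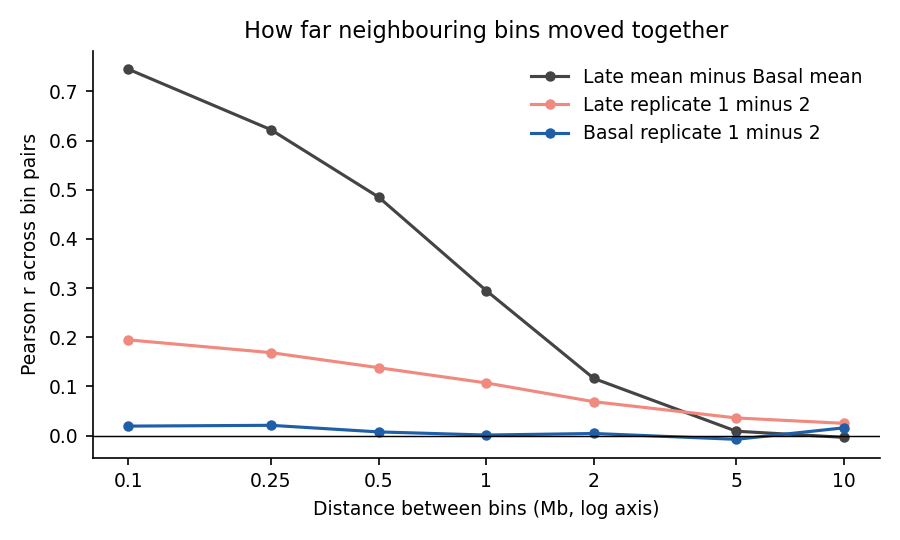
Pearson r between the values of bins a given distance apart (x axis, Mb, log scale), for Late mean minus Basal mean and for the differences between replicates. The Late minus Basal curve starts at 0.74 and reaches 0.0089 at 5 Mb, and the Basal replicate curve stays near 0 throughout. The Late replicate curve falls from 0.19 to 0.036 at 5 Mb and 0.025 at 10 Mb.

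In windows of 1 Mb, 1146 of 2376 differed in limma at an adjusted p of 0.05 (48.2%), with 571 higher and 575 lower in Late. Many of these differences were small: 485 of the called windows differed by less than 0.25 and 137 by 0.5 or more. The called windows had a median difference of 0.28 in the higher and -0.26 in the lower, each with a median SE of 0.052. The largest falls lay on chromosome 16 at 6 to 7 Mb (-1.28, SE 0.048, limma adjusted p = 3.1e-05) and at 9 to 10 Mb (-1.05), then on chromosomes 2 at 7 to 8 Mb (-0.98), 14 at 39 to 40 Mb (-0.90) and 17 at 70 to 71 Mb (-0.89). Among the largest rises was chromosome 7 at 98 to 99 Mb (0.92, SE 0.084). Chromosome 3 rose by 0.90 at 34 to 35 Mb. A second window of chromosome 7, 131 to 132 Mb, rose by 0.89. The values on chromosome 7 rest on the inverted sign of Late replicate 1. The count of called windows fell to 614 without Basal replicate 1 and 620 without Basal replicate 2.

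A few of the largest falls lay at genes that are well known from neurons, which were picked for naming from among all the regions and tested as no list. Chromosome 16 from 5300001 to 7200000, the surroundings of Rbfox1, a splicing regulator of neurons, had PC1 of 1.11 and 1.04 in the Basal libraries against 0.013 and 0.024 in the Late libraries, with Early at -0.055. Averaged over the region, the Late libraries stood at the border of A and B, far below both Basal libraries. Inside it, the window from 6000001 to 7000000 had a mean in A in both Basal libraries and in B in both Late libraries. Mean PC1 of that window was 1.06 and 1.02 in Basal against -0.22 and -0.26 in Late, with Early at -0.19. The 500 kb before the region stayed strongly in A, at 1.80 in Basal and 1.71 in Late, whereas the 500 kb after it went from 0.63 to 0.073. The drop therefore began at the proximal side of the region and ran on past its distal side. With a running mean over 10 Mb subtracted the difference was -0.53, and 19 of the 38 bins were still called. Under an alternative, a region counts as called when the median limma adjusted p of its bins is below 0.05. Here that median was 0.054, so the region's call was lost.

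A few megabases along the same chromosome, from 8900001 to 10200000, lay a fall at the place of Grin2a, which encodes an NMDA receptor subunit that admits calcium at glutamatergic synapses. PC1 was 0.88 and 0.78 in Basal and -0.11 and -0.22 in Late (mean 0.83 ± 0.072 and -0.16 ± 0.078, SD, n = 2 each), with Early at -0.043. Both Late libraries were in B and both Basal libraries in A, and Late minus Basal was -0.99 (26 bins, limma, highest adjusted p 0.040). With a 10 Mb running mean subtracted it was -0.51, and still called. On both sides, the neighbouring 500 kb remained in A in both groups, at 1.37 and 1.33 before and 1.15 and 0.93 after.

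Chromosome 14 from 39100001 to 40300000, the place of Nrg3, a ligand of the ErbB4 receptor, averaged above 0 in Basal with deep B on both sides. Mean PC1 of the region was 0.34 and 0.25 in Basal against -0.85 and -0.66 in Late. Not all of it was in A: the 1 Mb window at 39 to 40 Mb had 0.069 and -0.056 in Basal. The last 16 bins, from 39500001 to 40300000, were an island of A in both Basal libraries and in B in both Late libraries. They had 0.59 and 0.54 in Basal against -0.76 and -0.52 in Late. The flanks of 500 kb were at -1.30 and -1.18 in Basal and at -1.45 and -1.26 in Late. In Late the island was thus in B, like its flanks. Chromosome 13 from 14300001 to 14650000, the place of the ubiquitin ligase gene Hecw1, also passed from A to B, from 0.55 and 0.53 to -0.41 and -0.53, next to an A flank that stayed at 0.60 and 0.48. Early was at -0.37 in the Hecw1 region.

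Other falls stayed inside A. Chromosome 10 from 89250001 to 90450000, the place of Anks1b, which encodes a postsynaptic density protein, had PC1 of 1.17 and 1.15 in Basal against 0.17 and 0.35 in Late, with Early at 0.92. The groups did not overlap, and the Late mean lay below the Basal mean (-0.90, 24 bins, limma, highest adjusted p 0.040). Chromosome 1 from 22250001 to 22800000, the place of Rims1, which encodes a scaffold of the presynaptic active zone, had PC1 of 1.08 and 1.13 in Basal against 0.21 and 0.26 in Late, with Early at 1.002. In both of these regions the single Early library lay far closer to Basal than to Late. At the Rbfox1, Grin2a and Hecw1 regions it lay closer to Late.

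The longest falls spanned 1800 to 3250 kb. Chromosome 2 from 6350001 to 8650000 went from 0.65 and 0.64 in Basal to -0.31 and -0.21 in Late. Inside it, all 23 bins from 7300001 to 8450000 had 1 sign in each group, the longest A to B run of the autosomes. Chromosome 3 from 117600001 to 120850000 fell from 0.42 and 0.43 to -0.39 and -0.31, and chromosome 18 from 40300001 to 42400000 from 0.38 and 0.34 to -0.52 and -0.47. These 3 regions had an A flank on at least 1 side that remained in A. Chromosome 1 from 125100001 to 126900000 was in B in all 4 libraries and went deeper, from -0.41 and -0.46 to -1.04 and -1.06. On chromosome 7 the stretch from 3700001 to 5550000 fell within A, from 0.73 and 0.70 to 0.16 and 0.16. The last 2 calls were lost without Basal replicate 1 (differences -0.59 and -0.54) and without Basal replicate 2 (-0.64 and -0.57), and the latter also with a 10 Mb running mean subtracted (-0.13).

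Among the remaining falls with the largest difference, chromosome 3 from 157700001 to 158300000 went from 0.63 and 0.73 to -0.32 and -0.27. Chromosome 3 from 29050001 to 29650000 went from 0.62 and 0.66 to -0.22 and -0.25, and chromosome 18 from 89600001 to 89950000 from 0.21 and 0.29 to -0.74 and -0.73. All 3 thus crossed from A to B in both Late libraries. Chromosome 14 from 13150001 to 13650000 went from 0.95 and 0.85 to the border, at -0.079 and 0.11, and chromosome 16 from 75100001 to 75400000 from the border, at 0.013 and -0.13, to -1.09 and -1.08 in B.

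Some of the rises toward A also lay at well-known genes, again picked after the values were seen. Chromosome 3 from 34050001 to 35550000, the place of Sox2, a transcription factor of neural progenitors that glia also express, had PC1 of -0.38 and -0.36 in Basal against 0.61 and 0.44 in Late (mean -0.37 ± 0.018 and 0.52 ± 0.12, SD, n = 2 each). Late minus Basal was 0.89 over 30 bins (limma, highest adjusted p 0.044), with Early at 0.082. In Basal this was a stretch of B between A flanks of 0.47 and 0.74, and in Late it lay in A with them. Chromosome 4 from 53850001 to 56700000, the longest rise, holds the place of Klf4, a zinc finger factor known from reprogramming to pluripotency. There PC1 went from -0.36 and -0.34 to 0.37 and 0.37, again between A flanks of 0.70 and 1.26 in Basal. Its call was lost without Basal replicate 1 (difference 0.71) and without Basal replicate 2 (0.74).

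Not every rise lay between A flanks. Chromosome 13 from 63450001 to 64250000 is the place of Ptch1, the receptor of Sonic hedgehog, and its neighbour Fancc, a DNA repair gene. There PC1 was -0.24 and -0.28 in Basal against 0.72 and 0.95 in Late, with Early at 0.73, closer to Late. Before this region lay A, at 0.34 and 0.66, and after it B, at -0.63 and -0.28. The difference of 1.09 became 0.72 with a 10 Mb running mean subtracted, and was still called. Chromosome 18 from 57150001 to 57500000, the place of Megf10, an engulfment receptor of astrocytes, went from -0.35 and -0.30 to 0.93 and 0.73. Here the flank before it went from 0.35 to 0.89 and the flank after it from -0.25 to 0.24, so the values outside the called bins were also higher in Late.

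Chromosome 7 carried several broad rises. From 97650001 to 99650000 PC1 went from -1.01 and -1.01 in Basal to -0.030 and -0.26 in Late, and from 83550001 to 85700000 from -0.23 and -0.25 to 0.49 and 0.38. From 130950001 to 132350000 lay the longest B to A run of the autosomes, of 28 bins, with -0.57 and -0.50 in Basal, 0.37 and 0.28 in Late and -0.31 in Early. The single Early library, whose sign on chromosome 7 was not altered, was closer to the Basal mean than to the Late mean in all 3 stretches. The call at 97.65 Mb was lost with a 10 Mb running mean subtracted (difference 0.47), though 18 of its 40 bins were still called. The rise at 83.55 Mb lost its call without either Basal library (0.68 and 0.67). With chromosome medians aligned the rise at 97.65 Mb was 0.61, against 0.87, and that at 83.55 Mb 0.42, against 0.68. Both were still called.

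The other long rises lay on chromosome 14 from 117000001 to 119250000, from -0.53 and -0.48 in Basal to 0.20 and 0.34 in Late, and on chromosome 16 from 23100001 to 25300000, from -0.35 and -0.31 to 0.52 and 0.46. The first lost its call without Basal replicate 1 (difference 0.75). Shorter rises with a larger difference lay on chromosome 3 at 90.3, 115.3 and 130.3 Mb (0.98, 0.96 and 0.88), chromosome 10 at 12.7 and 120.4 Mb (0.96 and 0.89), and, once each, chromosomes 8 at 41.85 Mb (0.96), 18 at 81.35 Mb (0.90) and 4 at 98.9 Mb (0.90, or 0.58 with a 10 Mb running mean subtracted). In each of these 8, both Basal libraries were below 0 and both Late libraries above it. The first of them, 200 kb long, sat at a steep border, with a flank of 1.70 before it and of -1.72 after it in Basal. All 33 regions named by size or length kept their direction under every alternative. Their calls were lost when chromosome 7 of Late replicate 1 was left with its deposited sign, although differences outside chromosome 7 are then the same values. The rise on chromosome 7 at 83.55 Mb was then 0.18.

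**Figure D2:**
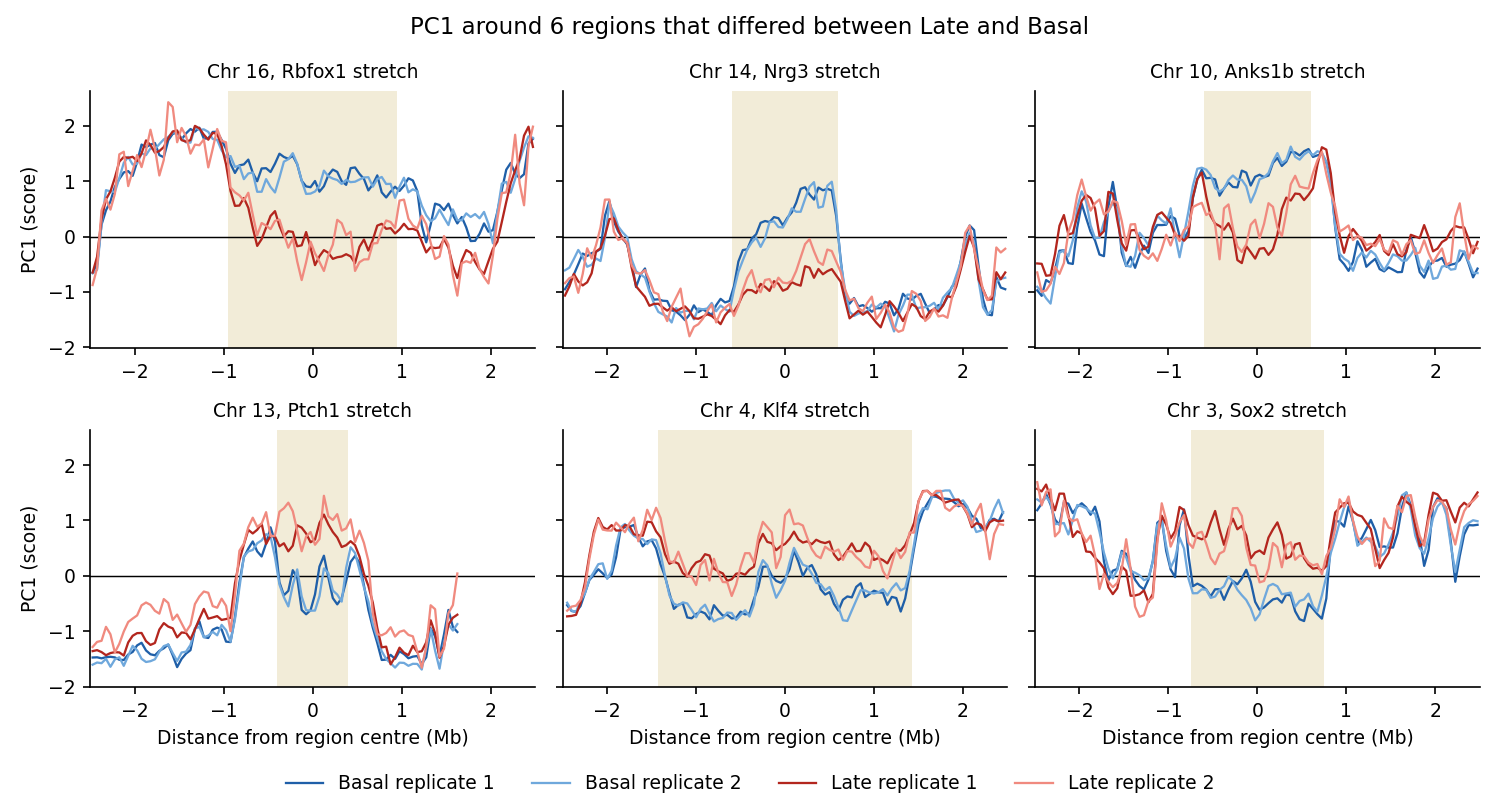
PC1 (y axis, score) along 6 of the named regions, against the distance from the region's centre (x axis, Mb), with 1 line per library and the called region shaded. In each panel the Basal lines lie close together inside the shading and apart from the Late lines, and the Late lines lie below in the upper 3 panels and above in the lower 3. Beyond the shading the groups run together around the Nrg3 stretch and stay apart on the distal side of the Rbfox1 stretch.

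By sign alone, 2526 bins (5.34%) switched, meaning that both libraries of each group shared a sign and the groups did not. The B to A switches numbered 1505 in 679 runs, and the A to B switches 1021 in 421 runs. Switched bins started near 0: the median size of the Basal mean was 0.26 in the former and 0.29 in the latter, and the median move 0.60 and -0.64. Of the switched bins, 1877 (74.3%) were also called in limma. B to A made up 59.6% of switches on the deposited scale with the sign change on chromosome 7, but 48.5% with quantile-normalized values and 48.3% with chromosome medians aligned. Both scalings draw each group's proportion of A toward the other by construction. At 1 Mb, 74 windows switched to A and 48 to B (5.13% of windows).

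Beside the runs described above, 1 of the longest A to B runs lay on chromosome 6 from 110550001 to 111550000, the place of Grm7, a presynaptic metabotropic glutamate receptor gene. All its 20 bins were also called. PC1 stood at 0.48 and 0.41 in Basal, at -0.41 and -0.30 in Late and 0.25 in Early. Chromosome 2 from 142850001 to 143650000 had 16 switched bins, 15 of them called, at 0.36 and 0.39 in Basal and -0.42 and -0.41 in Late. In both runs the Early library kept the sign of Basal.

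Bins near the border between compartments differed most. Within 100 kb of a sign change of the Basal mean, 23.7% of bins were called and 17.0% switched, and the median absolute difference was 0.27. Beyond 2000 kb from a border, 7.61% were called, 1.41% switched and the median was 0.16. The replicates showed the same order with a smaller range, from 0.11 to 0.079 in Basal and from 0.18 to 0.14 in Late. The median size of Basal PC1 was 0.22 within 100 kb and 1.15 beyond 2000 kb. A smaller move therefore suffices for a switch near a border, and the order of the switched shares follows in part from the sorting. The Basal mean also enters both the border and the difference, so its noise is on both sides. The number of borders was nearly equal, with 2079 in the Basal mean and 2035 in the Late mean.

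The mean difference varied with the level in Basal. To keep the noise of a library out of both sides, bins were sorted by 1 Basal library and the difference was taken to the other. In the decile with the strongest A, sorted by Basal replicate 1, the Late mean lay 0.146 below Basal replicate 2, and Basal replicate 2 itself lay 0.033 below replicate 1. Of those bins, 24.6% were higher in Late. In the decile with the strongest B the Late mean lay 0.042 above Basal replicate 2. With the Basal replicates exchanged the values were -0.146 and 0.033. In the decile around the border, the sixth, the Late mean lay 0.063 above, or 0.068 with the replicates exchanged.

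The same sorting from the other side gave another picture. In the strongest A of Late replicate 1 the Basal mean lay 0.063 above Late replicate 2, and in its strongest B 0.106 above it. Sorted by Late replicate 2 these values were 0.029 and 0.062. The strongest A bins thus had higher PC1 in Basal than in Late whichever group sorted them, while for the strongest B bins Late was higher when Basal sorted them and Basal was higher when Late sorted them. In whole libraries the 95th percentile of PC1 was 1.63 and 1.62 in Basal and 1.53 and 1.56 in Late. With quantile normalization, which equalizes those percentiles, the strongest A decile of Basal replicate 1 gave -0.081 for the same difference, and with chromosome medians aligned -0.238.

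**Figure D3:**
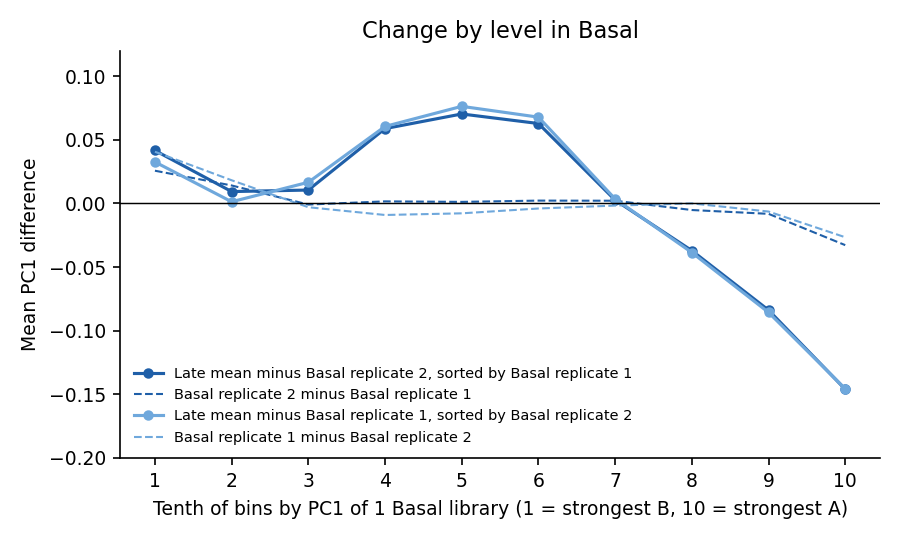
Mean PC1 difference (y axis) over deciles of bins ordered by PC1 of 1 Basal library (x axis, 1 is the strongest B and 10 the strongest A). Solid lines give Late minus the Basal library that did not sort the bins, and dashed lines the difference between the Basal libraries; the solid lines end at -0.146 and the dashed lines near -0.03 in decile 10.

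Chromosomes differed in how much they moved. Chromosome 18 had the highest share of called bins (22.9%), followed by chromosomes 7 (20.3%) and 13 (18.9%), and chromosomes 11 (7.07%), 17 (7.73%) and 19 (9.62%) had the lowest, around a median of 13.6%. Replicate spread differed between chromosomes as well. The median absolute difference between Basal replicates was 0.161 on chromosome 18 and 0.074 on chromosome 11, whereas chromosome 7 had the lowest of all, 0.060. Of the chromosomes, 14 had more higher than lower bins, with the largest majorities on chromosomes 5 (67.6% of called bins higher) and 4 (62.2%). Switches were more one-sided on some chromosomes: 164 from B to A against 24 on chromosome 7, 138 against 19 on chromosome 4 and 123 against 26 on chromosome 5. Chromosome 6 had the opposite balance, with 33 to A and 76 to B.

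**Figure D4:**
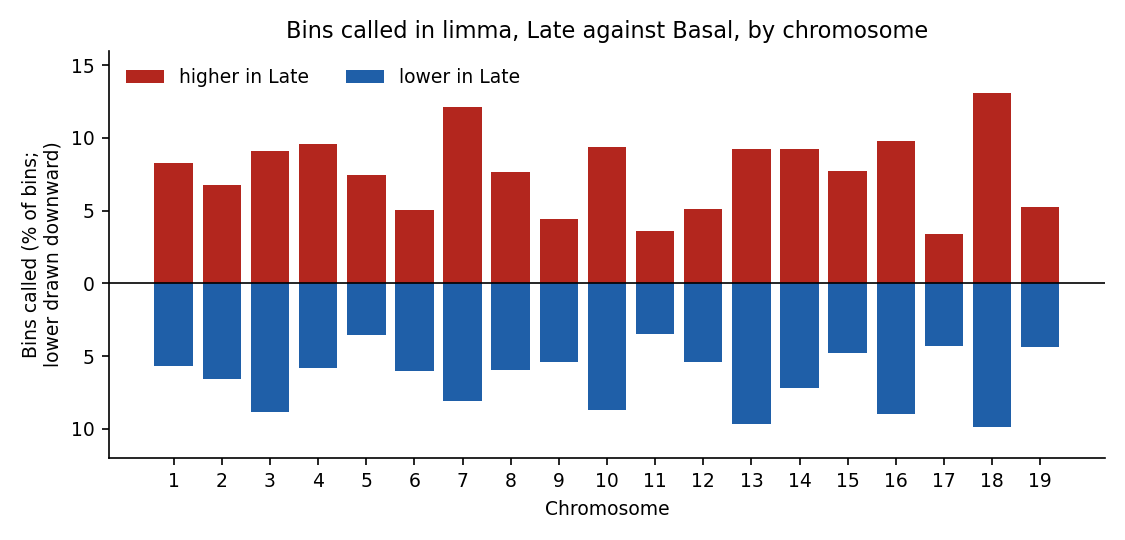
Share of each chromosome's bins called in limma at an adjusted p of 0.05 (y axis, % of bins), with bins higher in Late drawn upward and bins lower in Late downward. Chromosome 18 has the tallest bars in both directions and chromosomes 11 and 17 the shortest in sum.

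The share of a chromosome in compartment A differed on 10 of 19 chromosomes in limma (52.6%), being higher in Late on 8 and lower on 2. On chromosome 7 it was 37.9% and 37.5% in Basal and 45.2% and 44.1% in Late, a difference of 6.99 percentage points (SE 0.49, limma adjusted p = 0.00039). On chromosome 4 it was 42.1% and 42.4% in Basal and 47.9% and 48.3% in Late (difference 5.86, SE 0.34, limma adjusted p = 0.00036). On chromosome 5 it was 47.5% in both Basal libraries and 52.0% in both Late libraries (difference 4.53). The other 5 rises, on chromosomes 1, 8, 14, 15 and 19, were of 1.70 to 3.05 points. The 2 falls were on chromosome 6, from 47.2% and 46.7% to 45.1% and 45.4%, and on chromosome 12, from 48.4% and 48.5% to 47.2% and 46.9%.

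This count depends on the scaling. Quantile normalization gives the 4 libraries the same set of values over all autosomal bins. Their total share in A is then equal by construction, so rises on some chromosomes must come with falls on others. With these values 4 chromosomes were called higher and 7 lower. The difference on chromosome 14 was -0.087 points (limma adjusted p = 0.86), and the rises on chromosomes 1, 8 and 15 were no longer called (0.25, 0.92 and 0.57 points). The calls on chromosomes 4, 5 and 7 were kept under every alternative that was run, except that chromosome 7 was not called with its deposited sign (11.7 points). Alignment of chromosome medians was not among these alternatives. The skew of PC1 over bins, a measure of asymmetry, fell from Basal to Late on chromosomes 7 (0.70 to 0.36), 4 (0.40 to 0.12) and 5 (0.19 to -0.096). It also fell on the other chromosomes with a called rise, and rose on chromosomes 6 and 12. Its part in the share was not tested. The falls on chromosomes 6 and 12 were not called without Basal replicate 1 (-1.40 and -1.44), and the fall on chromosome 12 also not without Basal replicate 2 (-1.39). The rise on chromosome 14 was not called without Basal replicate 2 (1.35), and with chromosome 7 as deposited the unchanged rises on chromosomes 14 and 15 were not called either.

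**Figure D5:**
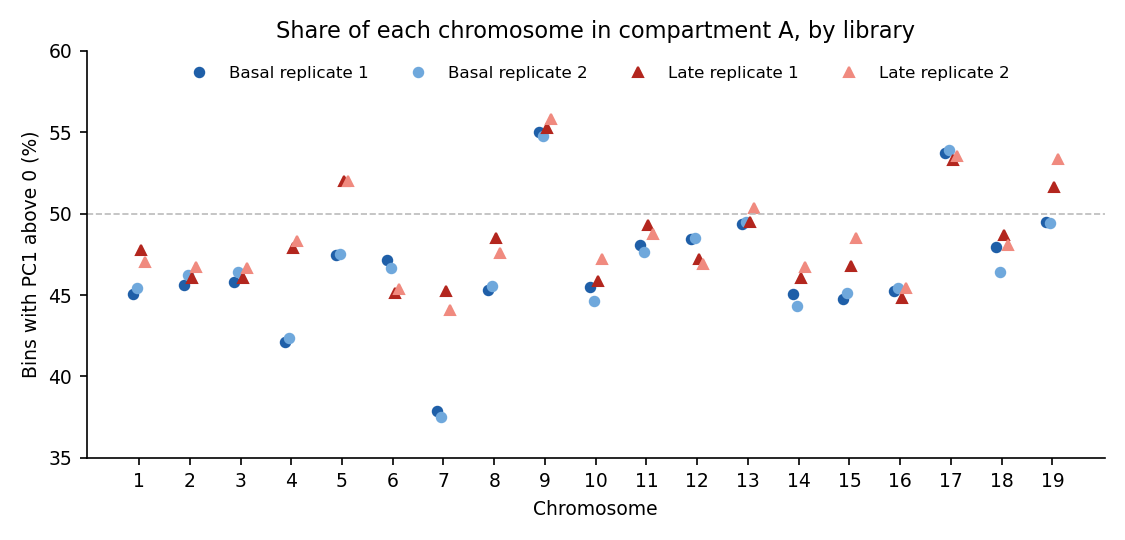
Percent of bins with PC1 above 0 (y axis, from 35 to 60%) on each chromosome, with 1 symbol per library. The Late libraries stand above the Basal libraries by the widest gap on chromosomes 7, 4 and 5 and below them on chromosomes 6, 12 and 17, the last of which was not called.

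The contrast between the distal and the proximal part of a chromosome, divided at the middle bin, was compared as well. It differed between groups in limma on 1 of 19 chromosomes (5.26%), and on 5 at an unadjusted p of 0.05. On chromosome 17 distal minus proximal PC1 was -0.29 and -0.27 in Basal and -0.45 and -0.39 in Late, a difference of -0.14 (SE 0.034, limma adjusted p = 0.040). The call was lost without Basal replicate 1 (-0.15) and without Basal replicate 2 (-0.13). With 1 Late library left out the count rose to 16 without replicate 1 and 14 without replicate 2, where the spread comes from the Basal pair alone.

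The telomeric ends had more bins lower than higher in Late. In the last 5 Mb of the chromosomes mean PC1 was 0.379 and 0.381 in Basal against 0.294 and 0.271 in Late, with Early at 0.369. The 2 Late libraries were below both Basal libraries, and the mean difference was below 0 on 16 of the 19 chromosomes. Of the 1887 bins there, 8.48% were called lower and 2.33% higher, against 6.27% and 8.01% in the rest. The difference in balance between the ends and the rest was not tested, and the balance over all bins depends on the scaling, with 3208 higher and 5772 lower bins when chromosome medians were aligned and 3069 and 3099 with quantile normalization. The mean difference there was -0.0975, or -0.157 with chromosome medians aligned and -0.0538 when chromosome 7 of Late replicate 1 kept its deposited sign. Chromosomes 13 (-0.33), 3 (-0.28) and 1 (-0.21) had the largest mean differences. The last 5 Mb of chromosome 3 lay in B in Basal, at -0.15 and -0.11, and those of chromosome 1 in A, at 1.05 and 1.03.

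At the first 5 Mb, next to the centromere with which mouse autosomes begin, chromosomes went both ways. Over all of them, mean PC1 was -0.174 and -0.175 in Basal and -0.196 and -0.184 in Late, with 9.13% of bins called lower and 7.35% higher. Chromosome 16 had 51.5% of its first bins called lower and none higher, with mean PC1 of 0.83 and 0.83 in Basal, 0.27 and 0.27 in Late and -0.059 in Early. Chromosome 7 had 54.8% called lower, from 0.87 and 0.85 to 0.42 and 0.45, with Early at 0.96. The 5 Mb were counted from a chromosome's first bin, and both stretches take in falls described above. On chromosome 16 this is the Rbfox1 region. On chromosome 7 it is the fall from 3700001 to 5550000, whose call was lost when either Basal library was left out. They are thus not separate results. Chromosome 3 went the other way, with 36.0% of bins called higher and a mean that went from -1.28 in both Basal libraries to -0.95 and -0.90 in Late.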

How the data were processed

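Each library came as 1 table of PC1, a signed score per 50 kb bin that the authors deposited. HOMER and build mm9 are named in the labels, per the submitters' processing notes. How reads were aligned and filtered, and how the sign was set, was not given in the sources used here. Depth is unknown because the tables list no counts, which leaves no counting interval to state. Groups were taken from the titles. Bins were joined by their identifier, and chromosome 7 of Late replicate 1 was multiplied by -1. Late and Basal were compared on these values with limma (version 3.58.1, R 4.3.3). Tests were 2-sided with Benjamini-Hochberg adjustment at 0.05 over all bins, over 1 Mb windows of at least 10 bins, or over chromosomes. Each fit had 2 residual degrees of freedom, and over bins the prior added 6.33. With 2 libraries against 2, an exact permutation test cannot go below p = 0.333. The fit was tested on simulated data, where it recovered the mean size of the differences but made calls only when many bins differed. The simulation drew each bin independently, without the blocks in which the real bins moved, so it does not cover that dependence. Named regions were the 12 with the largest mean difference and the 6 longest per direction among those with at least 4 called bins, plus 5 windows and 5 switch runs per direction. A region's call was taken as lost under an alternative when the median adjusted p of its bins was not below 0.05, so single bins can remain called. Python 3.11.15, numpy 2.4.6 and pandas 2.3.3 were used for the rest. Members, lists and tests were chosen with earlier results of these data known. Gene lists were not tested, since no annotation or genome of mm9 was used. One named region and the windows in it, which are among the largest rises, are not reported here.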

Additional observations from a re-analysis of the deposited data

How the results depend on the processing

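Bins called in limma numbered 6735, and 11268 at an adjusted p of 0.1, 3531 when every second bin was kept (of 23666) and 0 with chromosome 7 of Late replicate 1 as deposited (11735 at an unadjusted p of 0.05). Leaving out 1 library gave 1681 to 14036. Called 1 Mb windows fell to 741 with chromosome 7 as deposited, and leaving out 1 library gave 614 to 1638. Chromosomes with a called share in A numbered 8 to 12 with 1 library left out. Chromosomes with a called distal minus proximal difference numbered 0 with chromosome 7 as deposited, 3 with quantile normalization, and 0 to 16 with 1 library left out. Requiring each library to lie 0.1 beyond 0 left 1280 switches, and leaving out 1 library gave 3172 to 3806. In the share of A per chromosome, the difference on chromosome 14 changed sign under quantile normalization but was not called (-0.087 points, limma adjusted p = 0.86). The cause was not tested. With chromosome medians aligned, 463 windows were called higher and 814 lower, and the share in A was not recomputed, since it is then fixed by construction. Whether libraries of the same replicate number were paired is not given in the labels. The deviations of same-numbered libraries correlated at r = 0.012, which cannot settle it. With the number as a replicate block limma called 8099 bins, 1013 windows, 10 shares in A and 1 distal minus proximal difference. The block ended the call on chromosome 14's share in A. The other scalings, weights, prior and sets of bins kept each count within 1.5 times.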
